A study of Mus musculus with 24 samples.

Results

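The 53 genes described here are ligands, receptors, SMAD proteins, ID targets and extracellular regulators of the TGF-beta and BMP signalling pathways, chosen by gene symbol from the 37041 genes of the deposited tables. The list holds 18 ligands, 13 receptors and co-receptors, 8 SMAD genes, 4 ID genes and 10 extracellular regulators, and all of them are in the tables. RNA sequencing was carried out on 24 libraries in 8 groups of 3. The C2C12 line consists of mouse myoblasts that can fuse into muscle fibres. It was used as NFIA-expressing cells ("NFIA cells") and as control cells, both sampled untreated on day 0, untreated on day 7, and on day 7 following 4 h of 10 µM forskolin. Brown adipose tissue (BAT) of mouse neonates was sequenced in 3 libraries labelled NFIA-KO and 3 libraries labelled wild type (WT). The labels name neither the vector that carried NFIA, the medium, the number of clones, the deleted part of Nfia, nor whether tissue of several animals was pooled. They do not say whether libraries of a group came from separate cultures, so p-values measure the spread between these libraries, which may be technical.

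Ligands of this family bind paired type I and type II serine/threonine kinase receptors at the cell surface. TGF-beta and activin receptors phosphorylate SMAD2 and SMAD3, BMP receptors phosphorylate SMAD1, SMAD5 and SMAD9, and both kinds enter the nucleus with SMAD4, while SMAD6 and SMAD7 inhibit the receptors. Latent TGF-beta binding proteins, follistatins, noggin and gremlin hold ligands outside the cell, and ID genes are direct targets of the BMP branch. In mesenchymal cells, TGF-beta is known to restrain muscle and fat differentiation, and several BMPs are known to promote brown fat formation.

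Levels are FPKM, read fragments divided by transcript length and by library size, and so can be compared between genes. Fold changes are on the log2(FPKM + 1) scale and carry their SE from limma; this scale understates changes of low genes. Adjusted p-values were taken over all genes tested. Library sums of FPKM ran from 762822 to 1575522, and 17304 to 21410 genes were above 0; no read totals were used here, so depth is unknown. Nfia, the expressed gene, averaged 1269 ± 15.6 FPKM in NFIA cells, against 0.66 ± 0.465 FPKM in controls, at day 0 (SD, n = 3 each). In tissue it went against the label, at 44.6, 40.1 and 39.4 FPKM in the libraries labelled NFIA-KO and 24.3, 32.8 and 32.6 FPKM in WT libraries (log2 fold change 0.47 ± 0.15, adjusted p = 0.0973). No direction in tissue can therefore be read as an effect of losing NFIA from these values alone. Column headers carry an earlier date for the C2C12 libraries without a number in their titles, 1 in each group (replicate 1 here), and a later date for the numbered ones. Of the tested members, 9 were lowest in the library of the earlier date in all 6 C2C12 groups (Id1, Id2, Id3, Smad6, Gdf15, Bmp4, Eng, Fstl3 and Bmp1) and 11 were highest in it in all 6 (Tgfb2, Inhba, Tgfbr1, Tgfbr3, Acvr1, Acvr2a, Bmpr1a, Bmpr2, Smad5, Fstl1 and Ltbp1). Since each group has 1 such library, counts within the numbered libraries, and with the date as a term of the fit, are given beside those of all libraries.

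Upstream sequences, which for Smad6 run past the start site, are shown for 3 members on which results below turn: Ltbp1 for its response to forskolin, Smad6 and Id2 as targets of BMP signalling. They come from RefSeq on GRCm38.p6, which had windows of 300 bases, from 250 before to 50 after a start site, for 37 of the 53 members (45 windows). The Ltbp1 sequence is chr17:75005279-75005528 on the plus strand, with the cAMP response element letters TGACGTCA in capitals, beginning at position -73 from the start site. The Smad6 sequence is chr9:64022040-64022309 on the minus strand, with the palindromic SMAD-binding letters GTCTAGAC in capitals, beginning at position -4 from the start site. The Id2 sequence is chr12:25096093-25096342 on the minus strand, with the GC-rich BMP-SMAD letters GGCGCC in capitals, beginning at position -231 from the start site.
Ltbp1: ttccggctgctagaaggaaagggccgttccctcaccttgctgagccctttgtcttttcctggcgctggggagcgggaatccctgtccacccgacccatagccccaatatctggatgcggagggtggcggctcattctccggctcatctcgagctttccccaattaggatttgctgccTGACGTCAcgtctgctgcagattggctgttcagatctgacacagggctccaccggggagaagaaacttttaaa
Smad6: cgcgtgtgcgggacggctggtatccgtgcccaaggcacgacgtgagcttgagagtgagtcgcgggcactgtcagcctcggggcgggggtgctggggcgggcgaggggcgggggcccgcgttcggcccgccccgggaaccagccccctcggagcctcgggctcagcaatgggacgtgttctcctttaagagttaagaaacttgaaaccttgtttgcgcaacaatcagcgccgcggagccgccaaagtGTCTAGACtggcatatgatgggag
Id2: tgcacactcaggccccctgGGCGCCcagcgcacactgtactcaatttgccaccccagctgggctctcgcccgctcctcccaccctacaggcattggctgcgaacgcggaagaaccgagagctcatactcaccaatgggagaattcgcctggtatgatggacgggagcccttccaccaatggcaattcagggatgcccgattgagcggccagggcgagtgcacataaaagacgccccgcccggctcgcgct

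On both strands, TGACGTCA was found in 1.79% of all 32851 RefSeq windows, and among members with a window in 1 of the 2 windows of Ltbp1 and in no other. GTCTAGAC was in 0.213% of all windows and in that of Smad6 among the members. GGCGCC was in 11.9% of all windows and in 11 of the 45 member windows. These belong to 10 members, Id2, Id4, Smad5, Smad9, Acvr1b, Bmpr1a, Bmpr2, Tgfbr1, Grem1 and Gdf10. The half-site TGACG, which overlaps the full cAMP element, was in 20.8% of all windows and in 9 of the 45 member windows, of 9 members. The full NFI palindrome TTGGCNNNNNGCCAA was in 0.0365% of all windows and in none of the 45 member windows. The NFI half-site TTGGCA was in 14.1% of all windows and in 6 of the 45, of Eng, Inhbb, Ltbp2, Ltbp3, Smad1 and Tgfbr1. The PPAR-type direct repeat DR1 was in 0.0396% of all windows and in no member window. The E-box CANNTG was in 72.3% of all windows and in 24 of the 45 member windows, of 21 members. These matches describe letters in short windows, not binding.

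Of the 53 members, 39 had at least 1 FPKM in at least 3 C2C12 libraries and were tested there, 34 passed the same filter in tissue, 29 passed in both and 9 in neither. In the cells, 8 of 10 BMP-branch ligands were not tested, including Bmp2 and Bmp7, which are listed at 0 in all 18 libraries. Mstn, Acvr2b, Bmpr1b, Id4, Nog (noggin, a BMP antagonist) and Bambi (a decoy receptor) were also not tested, and the highest value of any untested member was 1.28 FPKM. Fstl1, a secreted glycoprotein, had the highest mean of all members in 5 of the 6 C2C12 groups, the exception being untreated NFIA cells at day 7, where Ltbp3 was higher. Acvr1c passed the filter through untreated NFIA cells at day 7 alone, Gdf5 through the day 7 control groups, and Smad9 through the day 0 groups. Acvrl1 reached 1 FPKM in 5 C2C12 libraries and would not have passed without NFIA cells at day 0 (2.34, 2.07 and 4.17 FPKM). A difference between groups was thus built into the selection of these members, which stay in the counts below.

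At day 0, 25 of the 39 tested members differed between NFIA and control cells, 18 higher and 7 lower in NFIA cells, against 21.2% of all 14351 genes tested (12.1% higher, 9.07% lower). At day 7, 28 differed, 8 higher and 20 lower in NFIA cells, against 55.5% of all genes (26.1% higher, 29.4% lower). With forskolin at day 7, 27 differed, 9 higher and 18 lower, against 61.6% of all genes (28.7% higher, 32.9% lower). The median log2 fold change of the members was 0.32 at day 0, -0.41 at day 7 and -0.29 with forskolin, and that of all genes 0.02, -0.03 and -0.04. Within the numbered libraries the counts were 26, 31 and 30, when 28.6%, 66.7% and 71.5% of all genes were called. With the date as a term they were 29, 32 and 34, when 37.0%, 68.2% and 72.4% of all genes were called. The effect of NFIA differed between the days for 27 members, against 45.3% of all genes, with a more positive effect at day 7 for 4 (19.8% of all genes) and a more negative one for 23 (25.5%). With the date as a term it differed for 32, against 60.8% of all genes.

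**Figure D1:**
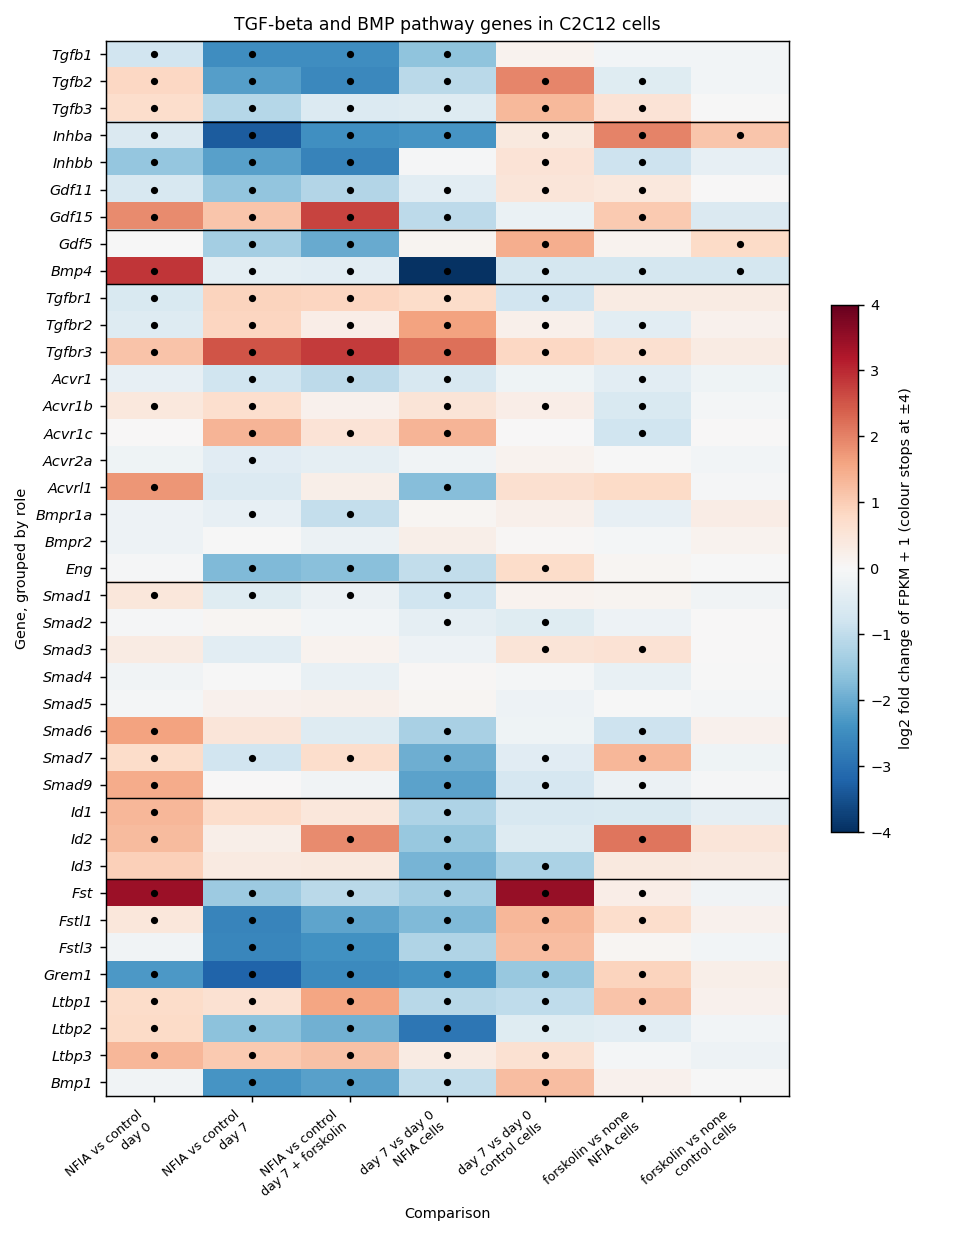
Heat map of log2 fold changes of FPKM + 1 for the 39 members tested in C2C12 cells (rows, grouped by role) in 7 comparisons (columns), red where the first-named group was higher. Black dots mark adjusted p under 0.05; at day 7 without forskolin, 20 members carry a dot on blue and 8 on red in the NFIA against control column.

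Marker lists of cell types moved with the NFIA groups as well. At day 0, 6 of 10 skeletal muscle markers were lower in NFIA cells, all 4 tested progenitor and fibroblast markers were higher (sums of 772, 833 and 809 FPKM in NFIA cells, against 262, 312 and 317 FPKM in control cells), and all 3 tested cartilage and bone markers were higher (24.2, 31.5 and 30.8 FPKM, against 8.98, 10.5 and 11.5 FPKM). Smooth muscle and pericyte markers were lower in 4 of 5 tested at day 0 and in 5 of 5 at day 7, when their sums were 241, 300.5 and 284 FPKM in NFIA cells, against 1198, 1284 and 1311 FPKM in control cells. At day 7 all 10 skeletal muscle markers were lower in NFIA cells, whose summed level was 3047, 3578 and 4255 FPKM, against 27425, 27200.1 and 28078 FPKM in control cells. Of 10 brown adipocyte markers 7 were higher and 2 lower, with sums of 23695, 24423 and 22300.4 FPKM in NFIA cells and 118, 205 and 171 FPKM in control cells, where Ucp1 was at 0. In such bulk samples, fewer cells of a type and less RNA per cell cannot be told apart, and the part of these shifts in the members' differences was not tested.

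The 3 TGF-beta ligand genes were all lower in NFIA cells at day 7, and only Tgfb1 was lower at day 0 as well. Tgfb1 (chr7:26472021-26490096 on mm9) had 11.9, 10.8 and 10.6 FPKM in NFIA cells, against 16.6, 21.2 and 21.5 FPKM in control cells at day 0. At day 7 it had 2.61, 3.05 and 3.34 FPKM in NFIA cells, against 21.4, 22.4 and 20.8 FPKM in control cells. The groups did not overlap on either day, and the log2 fold change was -0.77 ± 0.10 at day 0 and -2.50 ± 0.10 at day 7 (adjusted p = 5.54e-05 and 2.12e-11). From day 0 to day 7 it fell in NFIA cells (-1.60 ± 0.10, adjusted p = 4.03e-09), while in control cells the change was 0.13 ± 0.10 (adjusted p = 0.346).

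Tgfb2 (chr1:188447065-188529871) had 20.3, 15.9 and 18.3 FPKM in NFIA cells, against 11.8, 8.52 and 9.41 FPKM in control cells at day 0. By day 7 it had 8.93, 7.23 and 7.83 FPKM in NFIA cells, against 42.8, 38.6 and 40 FPKM in control cells. NFIA libraries were all above control libraries at day 0 and all below them at day 7, with log2 fold changes of 0.82 ± 0.12 and -2.21 ± 0.12 (adjusted p = 0.000132 and 5.06e-10). Tgfb3 crossed in the same way, at 45.7, 44.2 and 40.7 FPKM in NFIA cells, against 24.7, 27.5 and 27.3 FPKM in control cells at day 0. At day 7 Tgfb3 had 29.5, 31.5 and 29.7 FPKM in NFIA cells, against 66.2, 66.9 and 68.4 FPKM in control cells. The log2 fold changes of Tgfb3 were 0.70 ± 0.07 and -1.13 ± 0.07 (adjusted p = 2.45e-06 and 2.1e-09). In control cells both genes rose between day 0 and day 7, by 1.94 ± 0.12 for Tgfb2 and 1.31 ± 0.07 for Tgfb3, and in NFIA cells both fell (-1.09 ± 0.12 and -0.51 ± 0.07). The difference of the NFIA effects between days was -3.03 ± 0.17 for Tgfb2 and -1.82 ± 0.10 for Tgfb3 (adjusted p = 1.57e-09 and 9.51e-10).

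**Figure D2:**
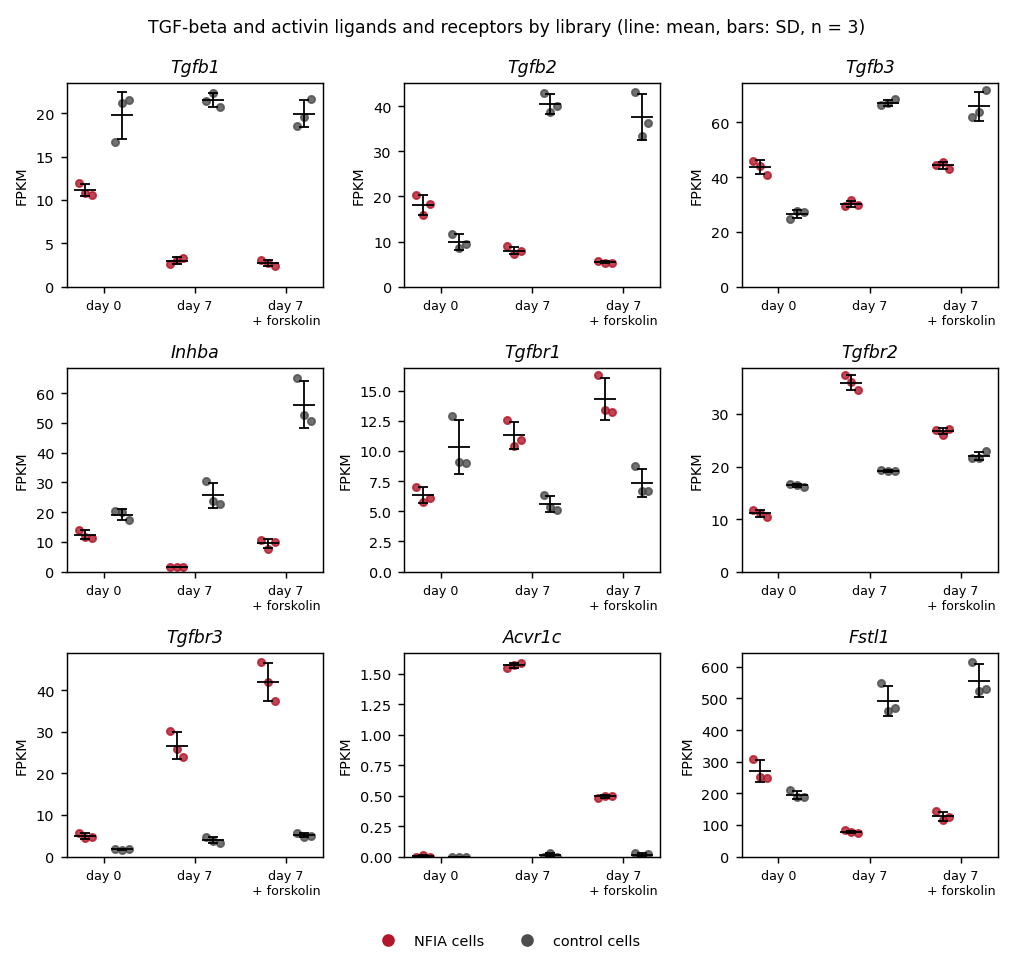
FPKM of 9 members of the TGF-beta and activin branch in each C2C12 library at day 0, day 7 and day 7 with forskolin, NFIA cells (red) left of control cells (grey). Points are libraries, the horizontal line is the mean and the bars are the SD (n = 3); Tgfb2, Tgfb3 and Fstl1 lie higher in NFIA cells at day 0 and higher in control cells at day 7.

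Of the 4 tested activin and GDF-branch ligands, Inhba, Inhbb and Gdf11 were lower in NFIA cells at day 0, at day 7 and with forskolin, and Gdf15 was higher in all 3. Inhba, which encodes the activin A subunit (chr13:16103684-16119044), had 1.67, 1.53 and 1.63 FPKM in NFIA cells, against 30.5, 23.7 and 22.8 FPKM in control cells at day 7. No NFIA library came near a control library, and the log2 fold change was -3.34 ± 0.14 (adjusted p = 1.53e-11), against -0.59 ± 0.14 at day 0 (adjusted p = 0.00499). Inhbb, the activin B subunit, had 1.78, 2.27 and 1.82 FPKM in NFIA cells, against 11.8, 13.1 and 11.6 FPKM in control cells at day 7, a log2 fold change of -2.16 ± 0.10 (adjusted p = 9.73e-11). Gdf11 had 2.71, 2.45 and 3.3 FPKM in NFIA cells, against 12, 9.77 and 9.42 FPKM in control cells at day 7, again without overlap (-1.58 ± 0.14, adjusted p = 1.4e-07). Gdf15, a stress-induced cytokine that signals through the receptor GFRAL rather than through TGF-beta receptors, had 16.3, 23.8 and 25.5 FPKM in NFIA cells, against 3.49, 5.77 and 6.38 FPKM in control cells at day 0. Its NFIA libraries were all above its control libraries, with a log2 fold change of 1.89 ± 0.32 at day 0 (adjusted p = 0.000501) and 1.12 ± 0.32 at day 7 (adjusted p = 0.00854).

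Bmp4 showed the highest level of any ligand on the list, in NFIA cells at day 0. Bmp4 (chr14:46999089-47010344), a BMP known to commit mesenchymal cells to the fat lineage, had 110.2, 113 and 111 FPKM in NFIA cells, against 13.2, 15 and 15.1 FPKM in control cells at day 0. The 3 NFIA libraries agreed closely and stood far above the control libraries, with a log2 fold change of 2.87 ± 0.09 (adjusted p = 1.02e-11). At day 7 Bmp4 had 5.46, 6.96 and 6.31 FPKM in NFIA cells, against 7.83, 9.13 and 8.55 FPKM in control cells. NFIA libraries were then below control libraries (-0.39 ± 0.09, adjusted p = 0.0015), and the effect differed between days by -3.26 ± 0.13 (adjusted p = 2.21e-11). Between day 0 and day 7 Bmp4 fell by 3.96 on the log2 scale in NFIA cells and by 0.70 in control cells (adjusted p = 1.97e-14 and 1.24e-05). Gdf5, a BMP-branch ligand known from joint development, had at most 0.11 FPKM in untreated NFIA cells at day 7, against 1.68, 1.81 and 1.9 FPKM in control cells.

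Receptor genes moved both ways. At day 7, 5 of the 11 tested receptors were higher in NFIA cells (Tgfbr1, Tgfbr2, Tgfbr3, Acvr1b and Acvr1c) and 4 were lower (Acvr1, Acvr2a, Bmpr1a and Eng), so all 3 TGF-beta receptor genes were higher where all 3 TGF-beta ligand genes were lower. Tgfbr3, the co-receptor betaglycan (chr5:107535589-107718648), had 5.75, 4.46 and 4.78 FPKM in NFIA cells, against 1.88, 1.57 and 1.73 FPKM in control cells at day 0. At day 7 it had 30.1, 25.9 and 23.8 FPKM in NFIA cells, against 4.71, 3.64 and 3.33 FPKM in control cells. NFIA libraries were above control libraries on both days (1.13 ± 0.12 and 2.50 ± 0.12, adjusted p = 5.59e-06 and 1.34e-10), and the effect was greater at day 7 by 1.37 ± 0.17 (adjusted p = 1.11e-05).

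Tgfbr2, the type II receptor that binds TGF-beta, had 11.8, 11.1 and 10.3 FPKM in NFIA cells, against 16.7, 16.4 and 16.1 FPKM in control cells at day 0. At day 7 it had 37.3, 36 and 34.5 FPKM in NFIA cells, against 19.4, 19.1 and 19.1 FPKM in control cells. NFIA libraries were all below control libraries at day 0 (-0.53 ± 0.06) and all above them at day 7 (0.87 ± 0.06, adjusted p = 5.18e-06 and 3.91e-09). Tgfbr1, the partner type I receptor, had 7.05, 5.8 and 6.11 FPKM in NFIA cells, against 12.9, 9.06 and 9.03 FPKM in control cells at day 0. At day 7 Tgfbr1 had 12.5, 10.4 and 10.9 FPKM in NFIA cells, against 6.31, 5.34 and 5.13 FPKM in control cells. It crossed like Tgfbr2, with log2 fold changes of -0.62 ± 0.14 and 0.90 ± 0.14 (adjusted p = 0.00465 and 5.54e-05). The effects of the 2 days differed by 1.40 ± 0.08 for Tgfbr2 and 1.51 ± 0.20 for Tgfbr1 (adjusted p = 1.87e-09 and 1.47e-05).

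Acvr1c (ALK7), a type I receptor known for its expression in mature adipocytes (chr2:58119864-58210306), had 1.55, 1.57 and 1.59 FPKM in NFIA cells, against 0, 0.03 and 0 FPKM in control cells at day 7. It was at most 0.03 FPKM in every control library and at most 0.01 FPKM in NFIA cells at day 0 (1.35 ± 0.05 at day 7, adjusted p = 8.06e-12). As Acvr1c passed the filter only through untreated NFIA cells at day 7, this difference was built into its selection. It was not tested within the numbered libraries, nor when any 1 of those NFIA libraries was left out. Acvr1b, the activin type I receptor, had 4.42, 5.3 and 5.15 FPKM in NFIA cells, against 2.66, 2.72 and 2.76 FPKM in control cells at day 7 (0.68 ± 0.09, adjusted p = 6.46e-06). The BMP receptors called at day 7 were lower in NFIA cells. Acvr1, a BMP type I receptor, had 13.7, 11.8 and 12.3 FPKM in NFIA cells, against 24.1, 21.7 and 21.5 FPKM in control cells (-0.79 ± 0.11, adjusted p = 2.22e-05). Bmpr1a differed by -0.34 ± 0.13 (adjusted p = 0.0374) and Acvr2a by -0.45 ± 0.18 (adjusted p = 0.0422). Both calls ended when any control library or the NFIA replicate 2 or 3 of day 7 was left out (adjusted p 0.0528 to 0.149 for Bmpr1a and 0.0633 to 0.148 for Acvr2a), and the Acvr2a locus also spans Orc4. Bmpr2, the main BMP type II receptor, was not called in the fit of all libraries at day 0 or day 7 (-0.19 ± 0.32 and -0.01 ± 0.32, adjusted p = 0.747 and 0.982). With the header date as a term it was called lower in NFIA cells at day 0 (adjusted p = 0.031) and with forskolin (-0.23, adjusted p = 0.00552), and not at day 7 (0.891).

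Among the signal-carrying SMAD genes, Smad2, Smad4 and Smad5 were not called between NFIA and control cells at any stage in the fit of all libraries, with log2 fold changes from -0.29 to 0.22. With forskolin, Smad4 was called lower in NFIA cells under quantile normalization (-0.39, adjusted p = 0.033), without control forskolin replicate 1 (-0.38, 0.0379) and without NFIA forskolin replicate 3 (-0.45, 0.00599), and Smad2 without NFIA forskolin replicate 1 (-0.23, 0.0488). Smad3, the TGF-beta branch SMAD, had 19.2, 25.6 and 20.8 FPKM in NFIA cells, against 30.7, 32.5 and 25 FPKM in control cells at day 7, overlapping ranges (-0.41 ± 0.19, adjusted p = 0.0865). Smad1, of the BMP branch, had 10.5, 10.1 and 10.4 FPKM in NFIA cells, against 7.27, 6.75 and 7.96 FPKM in control cells at day 0. It was higher in NFIA cells at day 0 (0.45 ± 0.07, adjusted p = 0.000308) and lower at day 7 (-0.48 ± 0.07, adjusted p = 4.76e-05). Smad9, the least abundant of the BMP-branch SMADs here (chr3:54559504-54605179), had 5.27, 4.52 and 5.03 FPKM in NFIA cells, against 1.28, 1.12 and 1 FPKM in control cells at day 0. All NFIA libraries were above all control libraries (1.48 ± 0.07, adjusted p = 6.03e-10), and by day 7 every library was at most 0.38 FPKM.

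Both inhibitory SMAD genes were higher in NFIA cells at day 0. Smad6, which blocks BMP receptors and is itself a BMP target (chr9:63800953-63869866), had 6.78, 11 and 8.08 FPKM in NFIA cells, against 1.54, 2.24 and 2.66 FPKM in control cells (1.61 ± 0.22, adjusted p = 5.46e-05). Its GTCTAGAC match, in the sequence shown above, begins at position -4 and runs across the start site. At day 7 the Smad6 ranges overlapped (1.87, 3.89 and 2.99 FPKM in NFIA cells, 1.42, 2.05 and 1.77 FPKM in control cells) and the difference was not called (0.48 ± 0.22, adjusted p = 0.0727), though it was within the numbered libraries (0.60, adjusted p = 0.00885). With forskolin Smad6 had 0.78, 1.2 and 1.56 FPKM in NFIA cells, against 1.57, 2.25 and 2.54 FPKM in control cells. All treated NFIA libraries were below all treated control libraries, a difference that missed the threshold in all libraries (-0.52 ± 0.22, adjusted p = 0.0505) and was called within the numbered libraries (adjusted p = 0.0175). With the header date as a term Smad6 was called higher at day 7 and lower with forskolin (adjusted p = 0.00177 and 0.000925). Its forskolin responses differed by -1.005 ± 0.31 (adjusted p = 0.0318), a call that ended without control day 7 replicate 1 or 3, NFIA day 7 replicate 2 or 3, control forskolin replicate 2 or 3, or NFIA forskolin replicate 1 or 2 (adjusted p 0.0531 to 0.0858). Smad7, which blocks both branches, had 14.2, 13.9 and 12.1 FPKM in NFIA cells, against 6.42, 9.95 and 6.79 FPKM in control cells at day 0. By day 7 Smad7 had 2.83, 2.89 and 2.33 FPKM in NFIA cells, against 5.99, 4.19 and 5.92 FPKM in control cells. NFIA libraries were above control libraries at day 0 and below them at day 7 (0.74 ± 0.16 and -0.78 ± 0.16, adjusted p = 0.00291 and 0.000596). Within the numbered libraries the day 0 difference of Smad7 was 0.59 and missed the threshold (adjusted p = 0.0702).

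ID proteins bind and silence E-box transcription factors such as MyoD, and their genes respond to BMP signalling. At day 0, Id1 (chr2:152561987-152563146) had 79.5, 114 and 109.8 FPKM in NFIA cells, against 26.5, 49.6 and 47.2 FPKM in control cells. Every NFIA library was above every control library (1.31 ± 0.34, adjusted p = 0.0108), but without replicate 1 of the day 0 control cells the adjusted p was 0.0555. Id2 (chr12:25778666-25780957) had 57.5, 76.6 and 78.5 FPKM in NFIA cells, against 22.4, 31.7 and 33.6 FPKM in control cells at day 0. Id2 was also higher in NFIA cells without overlap (1.26 ± 0.23, adjusted p = 0.00075). Id3 (chr4:135699412-135701670) had 156, 229.5 and 215 FPKM in NFIA cells, against 64.2, 128 and 131 FPKM in control cells at day 0. Here too NFIA libraries lay above control libraries, but the fit of all libraries missed the threshold (0.94 ± 0.34, adjusted p = 0.0628), whereas the numbered libraries passed it (0.78, adjusted p = 0.00112).

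At day 7 without forskolin none of the 3 tested ID genes was called in all libraries (limma, log2 fold changes 0.25 to 0.70). In that comparison 29 members in all had an unadjusted p under 0.05, a threshold not counted over all genes. Within the numbered libraries all 3 were called higher in NFIA cells, with log2 fold changes of 0.85 for Id1, 0.24 for Id2 and 0.44 for Id3 (adjusted p = 3.22e-05, 0.0192 and 0.00757). All 3 fell in NFIA cells between day 0 and day 7, Id1 by 1.24, Id2 by 1.53 and Id3 by 1.85 on the log2 scale (adjusted p = 0.00566, 3.5e-05 and 0.000247). In control cells Id3 fell by 1.28 (adjusted p = 0.00579), and the changes of Id1 and Id2 were -0.63 ± 0.34 and -0.52 ± 0.23 (adjusted p = 0.141 and 0.0717); both were called within the numbered libraries (-0.74 and -0.52, adjusted p = 0.00012 and 0.000388).

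**Figure D3:**
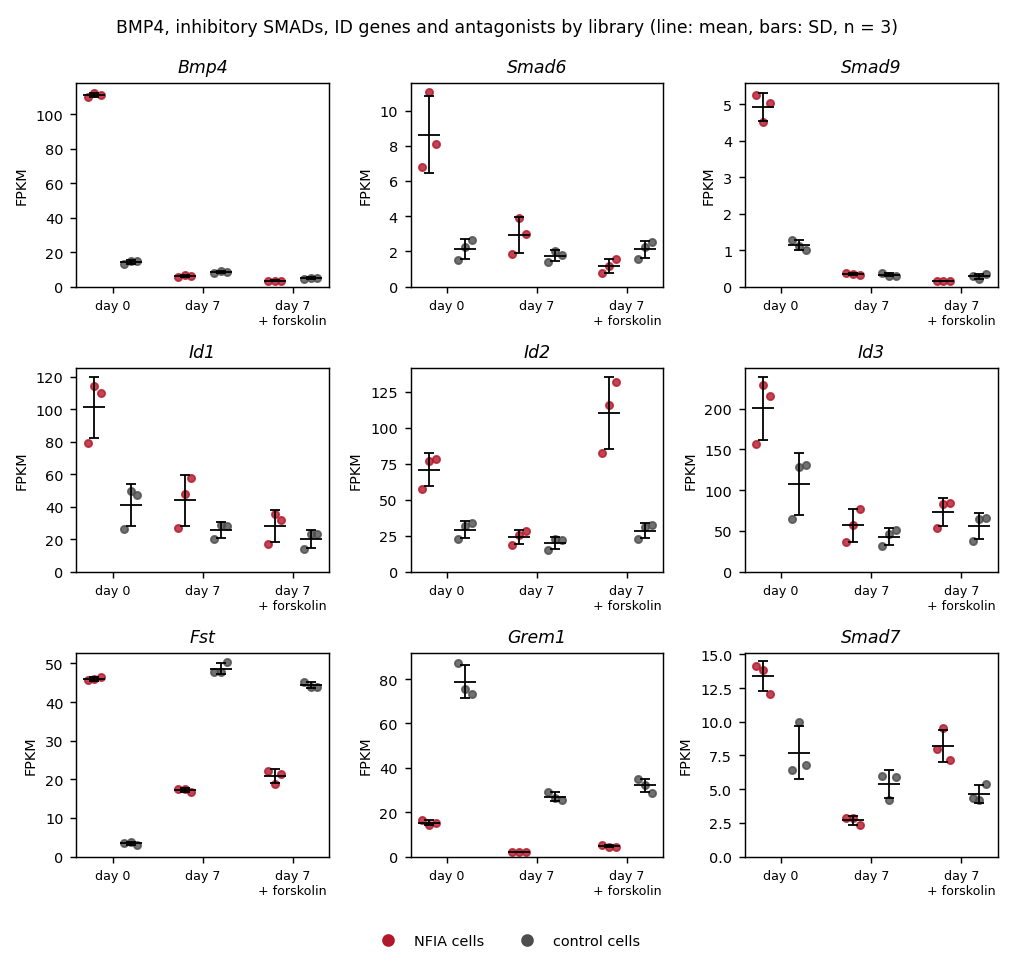
FPKM of Bmp4, inhibitory and BMP-branch SMAD genes, ID genes, Fst and Grem1 in each C2C12 library, NFIA cells (red) left of control cells (grey) at day 0, day 7 and day 7 with forskolin. Points are libraries, lines means and bars SD (n = 3); Bmp4, Smad6, Smad9, Id1 and Id3 have their highest values in NFIA cells at day 0, and Id2 in NFIA cells with forskolin.

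Among extracellular regulators, Fst had the greatest difference between days. Follistatin, its product, binds and neutralises activins and myostatin, and its gene (chr13:115242470-115249159) had 45.6, 45.9 and 46.5 FPKM in NFIA cells, against 3.5, 3.75 and 3.05 FPKM in control cells at day 0. By day 7 Fst had 17.4, 17.5 and 16.6 FPKM in NFIA cells, against 47.9, 47.9 and 50.3 FPKM in control cells. NFIA cells were thus far above control cells at day 0 (3.41 ± 0.07, adjusted p = 1.92e-13) and below them at day 7 (-1.45 ± 0.07, adjusted p = 1.03e-10), effects that differed by -4.86 ± 0.10 (adjusted p = 2.44e-14). In control cells Fst rose by 3.49 ± 0.07 between day 0 and day 7, and in NFIA cells it fell by 1.37 (adjusted p = 9.8e-15 and 2.18e-10).

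Grem1, the BMP antagonist gremlin (chr2:113586321-113598803), had 16.7, 14.2 and 15.1 FPKM in NFIA cells, against 87.4, 75.6 and 73.4 FPKM in control cells at day 0. At day 7 it had 2.06, 1.89 and 2.2 FPKM in NFIA cells, against 29.2, 26.3 and 25.6 FPKM in control cells. NFIA libraries were below control libraries on both days (-2.29 ± 0.10 and -3.20 ± 0.10, adjusted p = 1.75e-10 and 4.41e-13), so at day 0 the NFIA cells had a higher level of Bmp4 and a lower level of Grem1. Fstl1 had 82.6, 78.1 and 75.3 FPKM in NFIA cells, against 547, 459.8 and 471 FPKM in control cells at day 7 (-2.63 ± 0.11, adjusted p = 3.06e-11). At day 0 Fstl1 was higher in NFIA cells (0.46 ± 0.11, adjusted p = 0.0082), a call that ended under quantile normalization (adjusted p = 0.342), median-of-ratios rescaling (0.0686) and a fit of the compared groups alone (0.0672). Fstl3, a follistatin relative, had 3, 4.44 and 3.76 FPKM in NFIA cells, against 22, 30.8 and 30.8 FPKM in control cells at day 7 (-2.60 ± 0.24, adjusted p = 2.04e-07). Bmp1, a protease that cleaves procollagen and the BMP antagonist chordin rather than a BMP ligand, had 21.7, 29.4 and 28 FPKM in NFIA cells, against 119, 144 and 149.7 FPKM in control cells at day 7 (-2.35 ± 0.16, adjusted p = 7.19e-09).

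The 3 latent TGF-beta binding proteins on the list, a family named for anchoring TGF-beta in the matrix, differed among themselves. Ltbp3 was higher in NFIA cells on both days, at 73.7, 77.4 and 71.5 FPKM in NFIA cells, against 23.5, 31.9 and 32.4 FPKM in control cells at day 0 (1.33 ± 0.11, adjusted p = 5.04e-07) and with a log2 fold change of 1.04 ± 0.11 at day 7 (adjusted p = 1.59e-06); its listed locus extends beyond the gene itself. Ltbp1 was higher at day 0 (0.72 ± 0.11) and day 7 (0.62 ± 0.11, adjusted p = 0.000115 and 0.00013). Ltbp2, which does not bind TGF-beta itself, had 5.86, 6.2 and 6.36 FPKM in NFIA cells, against 26.6, 19.9 and 18 FPKM in control cells at day 7. Its NFIA libraries were all below its control libraries at day 7 (-1.64 ± 0.12, adjusted p = 9.94e-09) and above them at day 0 (0.76 ± 0.12, adjusted p = 0.000183).

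Between day 0 and day 7, 31 members changed in NFIA cells, 6 rising and 25 falling, against 56.9% of all genes (27.5% rising, 29.4% falling). In control cells 25 changed, 16 rising and 9 falling, against 48.9% of all genes (24.9% rising, 23.9% falling). Median log2 fold changes of the members were -0.97 in NFIA cells, against 0.14 in control cells; for all genes they were -0.01 and 0.02. Within the numbered libraries the counts were 32 in NFIA cells and 28 in control cells, against 66.5% and 60.2% of all genes. With the header date as a term they were again 32 and 28, against 68.5% and 64.0% of all genes. Members that fell in NFIA cells and rose in control cells numbered 9, a pattern that was not counted over all genes. They were Tgfb2, Tgfb3, Inhba, Gdf11, Eng, Fst, Fstl1, Fstl3 and Bmp1, and Tgfbr1 did the opposite. Among these, leaving out 1 library ended the control-cell call of Inhba (without control day 7 replicate 1 or control day 0 replicate 3, adjusted p 0.101 to 0.131) and of Eng (without control day 0 replicate 1 or control day 7 replicate 2 or 3, 0.0657 to 0.0707), and the NFIA-cell call of Gdf11 (without NFIA day 0 replicate 1 or NFIA day 7 replicate 2, 0.0686 to 0.0877). The listed Eng locus also spans Ak1 and Fpgs.

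Genes outside the 53 were read from 5 lists of pathway genes. Of 18 tested TGF-beta response genes, 10 were higher and 4 lower in NFIA cells at day 0 (median log2 fold change 0.68), when 12.1% of all genes were higher and 9.07% lower. At day 7, 17 were lower and none higher (median -2.32), against 29.4% and 26.1% of all genes. With forskolin 4 were higher and 12 lower in NFIA cells (median -1.80), against 28.7% and 32.9% of all genes. At day 0 the fibroblast and bone markers given above were higher in NFIA cells, and 4 of 5 smooth muscle markers were lower. At day 7, 2 of 4 tested fibroblast markers were higher and 2 lower, 2 of 3 bone markers were higher, and all 5 smooth muscle markers were lower. Col1a1 is also on the fibroblast list, and Acta2 and Tagln are also on the smooth muscle list. The part of these markers was not tested. Postn, the matrix protein periostin, averaged 471 ± 28.9 FPKM in NFIA cells and 49.7 ± 12.3 FPKM in control cells at day 0, and 23.3 ± 5.24 FPKM in NFIA cells and 416 ± 11.2 FPKM in control cells at day 7 (SD, n = 3 each, here and for the genes below). Col1a1, type I collagen, averaged 12 ± 1.83 FPKM in NFIA cells and 582 ± 58.8 FPKM in control cells at day 7 (-5.49 ± 0.15, adjusted p = 1.33e-13). Several of these genes are also matrix genes with many other inputs.

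Of 20 tested secreted and matrix modulators, 5 were higher and 6 lower in NFIA cells at day 0, and 6 higher and 12 lower at day 7; these and the next counts stand against the same shares of all genes, 21.2% called at day 0 and 55.5% at day 7. Htra1, a secreted protease, averaged 34.5 ± 2.66 FPKM in NFIA cells and 264 ± 22.3 FPKM in control cells at day 7 (-2.90 ± 0.16, adjusted p = 3.77e-10). Of 18 intracellular regulators 1 was higher and 5 lower at day 0, and 4 higher and 8 lower at day 7. Of 6 tested BMP response genes other than the ID genes, Atoh8 and Alpl were higher and none lower at day 0, and 2 were higher and 2 lower at day 7. Atoh8 averaged 11.6 ± 1.69 FPKM in NFIA cells and 5.04 ± 1.06 FPKM in control cells at day 0 (1.07 ± 0.19, adjusted p = 0.000554). None of 4 tested further ligands of the family was called at day 0 (limma), and 3 were lower at day 7.

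Forskolin activates adenylyl cyclase and so raises cAMP. In NFIA cells 22 members responded to it at day 7, 12 higher and 10 lower with forskolin, against 32.6% of all genes (15.7% higher, 16.9% lower). In control cells 3 responded, Inhba and Gdf5 higher and Bmp4 lower, against 3.97% of all genes (1.92% higher, 2.06% lower). There 10 members had an unadjusted p under 0.05, a threshold not counted over all genes. The Gdf5 call ended with a pseudocount of 0.1 (adjusted p = 0.4). With the header date as a term in the fit 15 were called in control cells (9.36% of all genes) and 28 in NFIA cells (48.7%). Within the numbered libraries 7 were called in control cells (5.36% of all genes) and 24 in NFIA cells (47.2%). The response itself differed between NFIA and control cells for 16 members, 9 more positive and 7 more negative in NFIA cells, against 20.1% of all genes (10.5% and 9.61%). The count was 15 of 38 tested within the numbered libraries, against 32.5% of all genes, and 19 of 39 with the date as a term, against 35.9%.

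Id2 had the greatest forskolin response among the members. In NFIA cells at day 7 it had 82.6, 116 and 132 FPKM in forskolin-treated libraries, against 18.6, 25.2 and 28.4 FPKM in untreated libraries (2.14 ± 0.23, adjusted p = 4e-06). In control cells it had 22.5, 30.7 and 32.2 FPKM in forskolin-treated libraries, against 15.4, 22.6 and 22.2 FPKM in untreated libraries (0.49 ± 0.23, adjusted p = 0.399). Treated libraries of NFIA cells lay far above untreated ones, while in control cells the ranges met, and the responses differed by 1.66 ± 0.32 (adjusted p = 0.00176). Within the numbered libraries Id2 rose in control cells as well, by 0.47 (adjusted p = 0.00987). Id1 and Id3 were not called in either kind of cell in the fit of all libraries (-0.61 ± 0.34 and 0.40 ± 0.34 in NFIA cells, adjusted p = 0.19 and 0.415). Within the numbered NFIA libraries Id1 fell by 0.62 and Id3 rose by 0.33 on the log2 scale with forskolin (adjusted p = 0.0006 and 0.0431).

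Ltbp1, whose upstream sequence above holds the full cAMP response element letters, had 88.2, 76.5 and 76.7 FPKM in treated NFIA cells, against 39.9, 34.4 and 33.2 FPKM in untreated NFIA cells. In control cells it had 28.4, 24.7 and 25.4 FPKM in treated libraries, against 25.4, 21.2 and 22.4 FPKM in untreated libraries. Treated and untreated libraries did not overlap in NFIA cells and overlapped in control cells (1.15 ± 0.11 and 0.18 ± 0.11, adjusted p = 9.07e-07 and 0.599). In control cells Ltbp1 was nonetheless called higher with forskolin within the numbered libraries (0.19, adjusted p = 0.0495) and with the header date as a term (0.18, adjusted p = 0.00441). The difference of the responses was 0.97 ± 0.15 (adjusted p = 0.000279), which missed the threshold under quantile normalization (0.70, adjusted p = 0.0502). Id2 has no TGACGTCA in its window.

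Smad7 had 7.95, 9.53 and 7.17 FPKM in treated NFIA cells, against 2.83, 2.89 and 2.33 FPKM in untreated NFIA cells, a log2 fold change of 1.32 ± 0.16 (adjusted p = 1.39e-05). In control cells it changed by -0.17 ± 0.16 (adjusted p = 0.874), and the responses differed by 1.49 ± 0.22 (adjusted p = 0.000229). Smad7 was lower in NFIA than in control cells at day 7 without forskolin and higher with it, at 7.95, 9.53 and 7.17 FPKM in NFIA cells, against 4.34, 4.17 and 5.38 FPKM in control cells in the treated groups (0.71 ± 0.16, adjusted p = 0.00113). Inhba rose in both kinds of cell, by 1.99 ± 0.14 in NFIA cells and 1.10 ± 0.14 in control cells (adjusted p = 3.6e-08 and 0.000187), more in NFIA cells by 0.89 ± 0.19 (adjusted p = 0.00386). Its level with forskolin was still lower in NFIA cells, at 10.7, 7.74 and 9.98 FPKM in NFIA cells, against 65.3, 52.5 and 50.6 FPKM in control cells.

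Tgfb3 rose with forskolin in NFIA cells (0.54 ± 0.07, adjusted p = 3.22e-05) and its response differed from that in control cells (0.57 ± 0.10, adjusted p = 0.000816). Grem1 rose as well (0.89 ± 0.10, adjusted p = 4.76e-06), to 5.2, 4.39 and 4.38 FPKM in treated NFIA cells, against 2.06, 1.89 and 2.2 FPKM in untreated ones. Tgfbr2, Acvr1b and Acvr1c fell with forskolin in NFIA cells, by 0.41, 0.61 and 0.78 on the log2 scale (adjusted p = 5.83e-05, 6.83e-05 and 2.68e-08). Acvr1c had 0.48, 0.5 and 0.5 FPKM in treated NFIA cells, against 1.55, 1.57 and 1.59 FPKM in untreated NFIA cells, the only group through which it passed the filter, so its fall was built into its selection. Bmp4 fell in both kinds of cell, by 0.72 in NFIA cells and 0.70 in control cells, with a difference of -0.02 ± 0.13 (adjusted p = 0.95). Gdf15 had 14.1, 24.4 and 28 FPKM in treated NFIA cells, against 6, 13.6 and 11.7 FPKM in untreated NFIA cells (1.03 ± 0.32, adjusted p = 0.0239). That call ended without NFIA day 7 replicate 1 or without NFIA forskolin replicate 2 or 3 (adjusted p 0.0771 to 0.112).

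Among the other pathway genes, 8 of 18 TGF-beta response genes rose and 1 fell with forskolin in NFIA cells, where 15.7% of all genes rose and 16.9% fell. In control cells 4 fell and none rose, against 2.06% and 1.92% of all genes. Junb, an immediate-early transcription factor, averaged 138 ± 42.6 FPKM in treated NFIA cells and 20.7 ± 7.2 FPKM in untreated NFIA cells (2.70 ± 0.34, adjusted p = 2.15e-05). Of 18 intracellular regulators 6 rose and 3 fell in NFIA cells, against the same 15.7% and 16.9% of all genes. Skil, a SMAD co-repressor, averaged 27.1 ± 2.31 FPKM in treated NFIA cells and 7.74 ± 1.36 FPKM in untreated ones (1.69 ± 0.19, adjusted p = 6.57e-06). Of 6 tested BMP response genes other than the ID genes, 1, Alpl, rose in NFIA cells and none fell. Alpl, alkaline phosphatase, averaged 158 ± 33.1 FPKM in treated NFIA cells and 7.63 ± 3.64 FPKM in untreated ones (4.29 ± 0.25, adjusted p = 5.92e-09).

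**Figure D4:**
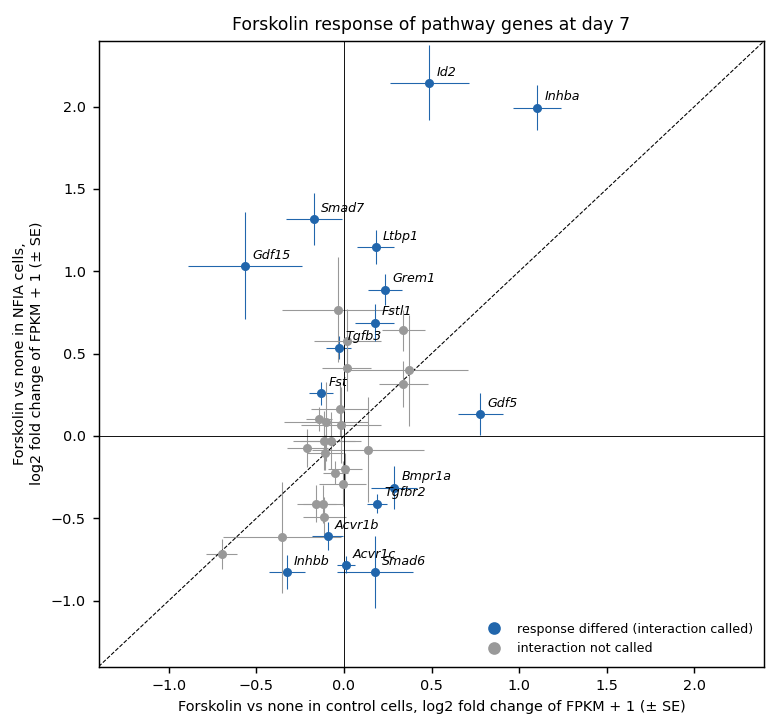
Forskolin response at day 7 of the 39 members tested in C2C12 cells, as log2 fold change of FPKM + 1, in NFIA cells (y axis) against control cells (x axis), with SE bars and a dashed line of equal response. Blue marks the 16 members whose responses differed at adjusted p under 0.05; Id2 lies highest, at 2.14 in NFIA cells and 0.49 in control cells.

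In brown adipose tissue, 2 of the 34 tested members differed between the libraries labelled NFIA-KO and WT libraries, against 7.14% of all 13618 genes tested (3.59% higher, 3.55% lower). Id2 was lower and Acvr2b, an activin type II receptor, was higher in the libraries labelled NFIA-KO. The median log2 fold change was -0.10 over the members and -0.02 over all genes. An unadjusted p under 0.05 was found for 5 members, a threshold not counted over all genes. Fstl1, Eng, an endothelial co-receptor, Id1 and Ltbp3 were among the 6 members with the highest means in both groups. Gdf10, Bmp6, Id4, Bambi and Acvr2b passed the filter here and not in the cells, and Acvr1c, at 8.05, 13 and 20.7 FPKM in the libraries labelled NFIA-KO, against 13.2, 10.2 and 16.4 FPKM in WT libraries, was far above its level in any C2C12 library. Bmp8b, known for its role in brown fat heat production, was at most 0.08 FPKM, and Bmp7 at most 0.47 FPKM.

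The tissue libraries differed in their cell markers. Of 7 tested skeletal muscle markers 4 were higher in the libraries labelled NFIA-KO, with summed levels of the 10 listed of 1925, 323 and 986 FPKM, against 84.7, 84.2 and 157 FPKM in WT libraries. Of 10 brown adipocyte markers Ucp1, Elovl3 and Cox8b were lower, with sums of 20409.5, 25656 and 23327 FPKM in the libraries labelled NFIA-KO and 40525, 35335 and 13220.1 FPKM in WT libraries, where replicate 3 stood apart. The NFIA-KO muscle sums spread widely, with replicate 1 highest and replicate 2 lowest. Endothelial marker sums, beside Eng, were 393, 376 and 311 FPKM in the libraries labelled NFIA-KO and 446, 431 and 374 FPKM in WT libraries, with 0 of 7 called by limma. No brown adipocyte, muscle or endothelial marker was at 0 in all libraries of a group. The part of these markers in the differences given next was not tested.

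Id2 had 17, 17.9 and 14.8 FPKM in the libraries labelled NFIA-KO, against 62.2, 42.5 and 39.2 FPKM in WT libraries. The groups did not overlap (-1.45 ± 0.19, adjusted p = 0.0177). Without WT replicate 1, WT replicate 3 or NFIA-KO replicate 2 the adjusted p was 0.0525 to 0.0733, and with no expression filter it was 0.0613. Without NFIA-KO replicate 1 and WT replicate 3 together, no member was called, when 0.122% of all genes were. Id2 then had a log2 fold change of -1.60 (adjusted p = 0.0916). Acvr2b had 1.16, 1.37 and 1.58 FPKM in the libraries labelled NFIA-KO, against 0.58, 0.49 and 0.35 FPKM in WT libraries (0.69 ± 0.15, adjusted p = 0.0424). It passed the filter through the libraries labelled NFIA-KO alone, so a difference was built into its selection, and its call ended without any one of the WT libraries (adjusted p 0.0553 to 0.154) and with no expression filter (0.0702).

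A further 3 members had an unadjusted p under 0.05 and were not called. Eng had 51.8, 45.2 and 38.2 FPKM in the libraries labelled NFIA-KO, against 91.9, 63.7 and 64.2 FPKM in WT libraries (-0.68 ± 0.19, adjusted p = 0.0698), at a listed locus that also spans Ak1 and Fpgs. Ltbp2 had 4.72, 5.57 and 12.3 FPKM in the libraries labelled NFIA-KO, against 19.5, 12.7 and 18.7 FPKM in WT libraries (-1.16 ± 0.33, adjusted p = 0.0769). Fst had 16.4, 9.34 and 3.65 FPKM in the libraries labelled NFIA-KO, against 3.28, 3.63 and 2.86 FPKM in WT libraries (1.15 ± 0.44, adjusted p = 0.139). Its libraries labelled NFIA-KO spread widely, and the lowest of them was level with the highest WT library. Without NFIA-KO replicate 3, Ltbp2 and Fst passed the threshold (adjusted p = 0.0282 and 0.0309). Id1 and Id3 were not called (-0.70 ± 0.30 and -0.64 ± 0.32, adjusted p = 0.175 and 0.232), and neither was any TGF-beta ligand or SMAD gene.

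**Figure D5:**
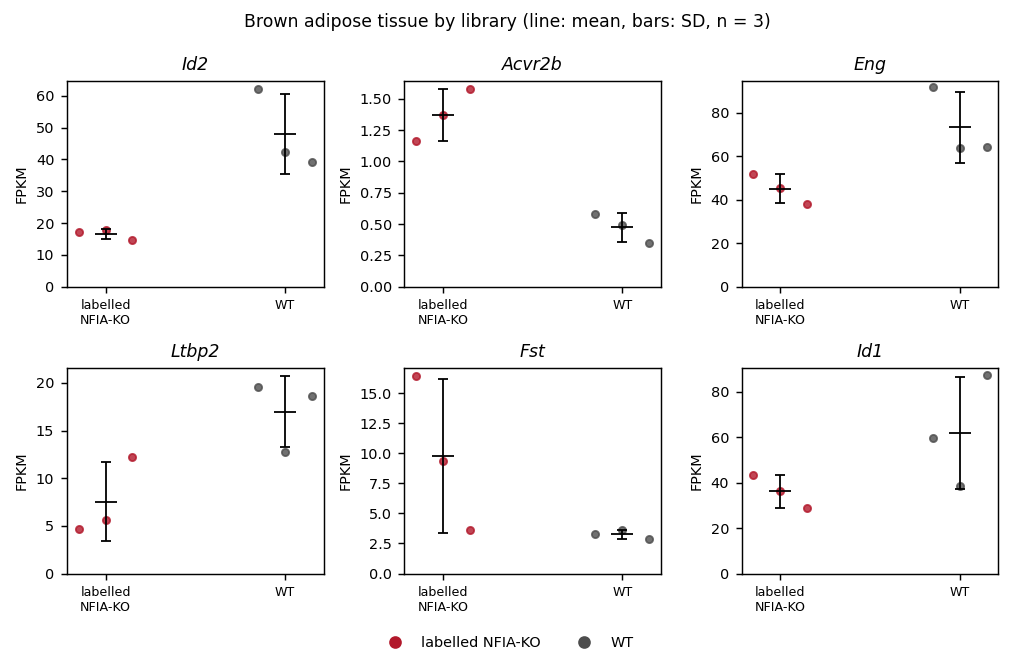
FPKM of 6 members in each tissue library, libraries labelled NFIA-KO (red) left of WT libraries (grey); points are libraries, lines means and bars SD (n = 3 each). Id2 lies at 14.8 to 17.9 FPKM in the libraries labelled NFIA-KO and at 39.2 to 62.2 FPKM in WT libraries.

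Of the other pathway lists, 1 of 17 tested TGF-beta response genes, Lox, was higher and 1, Ctgf, was lower, and none of 18 modulators, 18 intracellular regulators or 4 BMP response genes was called (limma).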

How the data were processed

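RNA was extracted with Trizol and a spin-column kit, and stranded poly(A) libraries were made, per the labels' protocols. Per the submitters' processing notes, TopHat and Cufflinks were used with mm9; neither versions nor the annotation were given in the sources used here. The authors deposited FPKM values per gene with 2 decimals, not read counts, so no count model was used. The 37305 rows were read as 37041 genes, after 264 rows were summed with another row of the same symbol at an overlapping locus.

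FPKM were tested as log2(FPKM + 1) with limma 3.58.1 (R 4.3.3) with a variance trend, on genes with at least 1 FPKM in at least 3 libraries of the fit. One fit held the 18 C2C12 libraries (14351 genes) and another the 6 tissue libraries (13618 genes). P-values were adjusted by Benjamini-Hochberg over all genes of a fit, and a call is an adjusted p under 0.05. The script was tested on simulated data. The 53 members, their roles, the other gene lists and the tests were chosen with earlier results of these data known. Any member could be named; per-library values are given for members called in a comparison and for receptors and SMADs that a statement on the pathway needs, and up to 4 called genes with the greatest change are named from another list. Alternatives were the pseudocount, filter, normalization, variance trend, zeros, fitted groups, header date, replicate block and leaving out each library. RefSeq promoter windows were searched for motifs on both strands. Single values of some genes of the other lists are not reported here.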

Additional observations from a re-analysis of the deposited data

Results flagged for a closer look

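Effects of NFIA that differ between day 0 and day 7 were found for 27 members, against 45.3% of all genes. Effects of opposite direction on the 2 days, each called on its own and with a called difference, were found for 10 of them. How many of all genes had such opposite effects was not counted, so the 10 cannot be set against a background. The difference of log2 fold changes, day 7 minus day 0, was -3.03 for Tgfb2, -1.82 for Tgfb3, -3.26 for Bmp4, -0.93 for Smad1, -1.52 for Smad7, -4.86 for Fst, -3.09 for Fstl1 and -2.39 for Ltbp2, all of which were higher in NFIA cells at day 0 and lower at day 7. It was 1.51 for Tgfbr1 and 1.40 for Tgfbr2, which were lower in NFIA cells at day 0 and higher at day 7. The day 0 call of Fstl1 and that of Smad7 ended under alternatives given with their values above.

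The response to forskolin differed between NFIA and control cells for 16 members, against 20.1% of all genes. In the fit of all libraries, Smad7 had called NFIA effects of opposite direction without and with forskolin, and the difference was 1.49. Smad6 had such effects within the numbered libraries and with the header date as a term, given with its values above.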

How the results depend on the processing

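No called fold change of a member changed sign under any alternative; 167 of 6504 member results did, all of them uncalled both as reported and under the alternative. Of the 6504, 6165 kept their side of the threshold, 156 passed it newly and 183 lost it. In control cells, where 3 members responded to forskolin, 7 were called within the numbered libraries (5.36% of all genes) and 5 with a replicate block in those libraries (4.37%). With the header date as a term 15 were called (9.36%), and with a pseudocount of 0.1 it was 2 (3.29%). Median-of-ratios rescaling called 2 higher and 2 lower (4.1% of all genes), and leaving out 1 library gave 3 to 3 (2.52% to 3.12%). In tissue, where 2 were called (7.14% of all genes), 0 were called without an expression filter (0.165%). Without NFIA-KO replicate 1 and WT replicate 3, a setting chosen after seeing the data, 0 were called (0.122%). Leaving out 1 tissue library gave 0 to 3, when 0.142% to 10.2% of all genes were called.

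Leaving out 1 library gave 24 to 26 calls at day 0, when 16.3% to 19.9% of all genes were called. It gave 25 to 29 at day 7 (50.6% to 53.1%) and 26 to 29 with forskolin (57.6% to 60.2%). Over time it gave 28 to 31 in NFIA cells (51.9% to 54.1%) and 21 to 25 in control cells (42.5% to 46.9%). For forskolin in NFIA cells it gave 17 to 22 (26.2% to 30.6%). For the difference between days it gave 25 to 27 (41.7% to 46.1%), and for that between forskolin responses 11 to 14 (16.6% to 19.9%). Deviations from the group means correlated at a median of 0.185 between same-numbered C2C12 libraries and -0.143 between others. All 15 pairs of replicate 1, which share the earlier header date, lay at 0.185 to 0.444. That date as a term raised the count in all 9 C2C12 comparisons, to the values given above, and the share of all genes called rose in each as well. Pairs of replicate 2 lay at 0.027 to 0.303, of replicate 3 at -0.036 to 0.277 and tissue pairs at -0.009 to 0.143, so among these the number is not taken as a pairing. In the cells, the replicate block was fitted within the numbered libraries only, with 38 members tested. For NFIA against control at day 0, day 7 and with forskolin, those libraries gave 26, 31 and 30 without the block (28.6%, 66.7% and 71.5% of all genes). With the block, the counts were 27, 31 and 31 (27.4%, 65.8% and 70.8%). They were 31 and 26 over time in NFIA and control cells (65.9% and 59.0%) and 24 for forskolin in NFIA cells (45.8%). For the differences between days and responses they were 28 and 14 (55.8% and 30.6%). In tissue the count was 2 (5.87%), where Eng passed (adjusted p = 0.0481) and Acvr2b did not (0.0732). Quantile normalization moved the median of all genes to -0.11 for day 7 against day 0 in control cells, against 0.02. Depth is unknown, so low members such as Gdf5, Acvr1c and Acvr2b carry an error that cannot be stated. The causes were not tested.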
